A study of Mus musculus with 16 samples.

Results

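The inducible heat shock chaperones and their partners were followed through 10 genes, namely Hspa1a, Hspa1b, Hspb1, Hsph1, Dnajb1, Dnaja4, Bag3, Hspa8, Hsp90aa1 and Hspd1. They were taken by symbol from the gene table, which makes 10 of 48440 genes, and each matched 1 row. Their transcripts were counted as unique molecular identifiers (UMIs), each standing for 1 captured RNA molecule, and the UMIs were summed per library and cell class. The data are single-cell RNA-seq of inguinal lymph nodes of 8-week-old C57Bl/6 mice, after positive selection for podoplanin (PDPN), a surface protein of fibroblastic reticular cells and lymphatic endothelial cells (LECs). Mice received MC38 cells, a mouse colon carcinoma line, under the skin of the right flank, and their nodes were taken on day 12.

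The 16 libraries fell into 5 groups. Live MC38 cells gave 3 libraries of the draining node on the injected side and 3 of the non-draining node of the opposite side. Paraformaldehyde-fixed MC38 cells, a source of tumor antigen without a growing tumor, gave 3 libraries of each node in the same way. Mice that received no cells gave 4 naive libraries. Libraries are lettered within a group and the labels name no animals, so p-values measure the spread between libraries. The study's methods give 3 mice with live and 3 with fixed cells, so draining and non-draining libraries share animals, but not which libraries do. MC38 is 1 line, and a single time point was sampled. All nodes were digested with collagenase P, dispase and DNase I at body temperature before selection.

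Heat shock proteins are chaperones, which hold unfolded proteins and help them to fold. Under heat or other protein-damaging stress the transcription factor HSF1 binds heat shock elements in their promoters and raises transcription within minutes, while members such as Hspa8 are made at rest. Some of these genes are also known to respond to the warm enzymatic digestion that frees stromal cells, so a level set in the animal and one set during digestion cannot be told apart in these libraries.

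The libraries held 68741 barcodes, of which 50386 passed as cells, and 7486725 to 48945961 UMIs. Cells were placed in classes by marker genes, and 71.3% of them found a class (68.7% to 76.0% by group). LEC-like cells (9426, 302 to 1057 per library) and fibroblastic-like cells (12041, 181 to 1412 per library) were the largest classes. Prox1, the defining transcription factor of LECs, had a UMI in 95.9% of LEC-like and 3.48% of fibroblastic-like cells, and Pdgfra, a fibroblast receptor, in 2.27% and 83.4%. Both genes are among the markers that set the classes, so these shares are no independent check of them. Any pair of libraries shared at most 15 barcodes (0.393% of the smaller one).

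Hspa1a and Hspa1b encode the stress-inducible HSP70 and lie beside each other on chromosome 17 of the mm10 (GRCm38) build, at chr17:34969190-34972156 and chr17:34956436-34959238, both on the minus strand. Over whole transcripts, 49.1% of the 91-base windows of Hspa1a and 52.0% of those of Hspa1b were found in the other gene, but none of those in the last 500 bases, where 3′ reads fall. Sequences of the 150 bases before the annotated start of both genes and of Hspb1, at chr5:135887919-135889563 on the plus strand, are shown as examples with such elements. They come from RefSeq on GRCm38.p6, 5′ to 3′ on the gene's strand, and the capitals mark GAANNTTC, a pair of opposed element units.
Hspa1a, chr17:34972157-34972306, minus strand: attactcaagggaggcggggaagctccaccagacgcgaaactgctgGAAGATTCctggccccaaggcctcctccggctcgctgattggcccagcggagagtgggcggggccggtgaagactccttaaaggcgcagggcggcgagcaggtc
Hspa1b, chr17:34959239-34959388, minus strand: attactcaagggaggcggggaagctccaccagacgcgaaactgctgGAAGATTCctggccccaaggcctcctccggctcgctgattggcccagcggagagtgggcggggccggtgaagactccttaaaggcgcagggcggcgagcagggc
Hspb1, chr5:135887769-135887918, plus strand: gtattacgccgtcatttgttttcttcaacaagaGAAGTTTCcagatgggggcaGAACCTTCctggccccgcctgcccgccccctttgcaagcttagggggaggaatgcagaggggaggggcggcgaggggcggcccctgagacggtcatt
The Hspa1a and Hspa1b windows differed at 1 of 150 bases, T149G, with the Hspa1a base first and positions counted from 1 at the 5′ end. Each had 1 pair, 104 bases before the start. Hspb1 had 2 pairs, the nearer one 97 bases before the start. Pairs were searched as GAANNTTC or TTCNNGAA, which covers both strands, in the 250 bases before each start, and 2 overlapping pairs make a run of 3 units. RefSeq entries were at hand for 8 members, and 6 of them had a pair in at least 1 promoter (7 of 12 promoters), while 12.8% of all 32851 promoters had one. Dnajb1 and Bag3 had no pair in any promoter searched. A run of at least 3 units was found for Hspd1 alone, in 1 of its promoters, and in 0.466% of all. That Hspd1 run was made of 3 overlapping pairs, and the 150 bases before its start lay wholly in annotated exons. Hspa8 and Hsp90aa1 had no entry.

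The other members lie apart from one another, Hsph1 at chr5:149614287-149636376 and Hspd1 at chr1:55077835-55088243, both on the minus strand, and Hspa8 at chr9:40800984-40810087 and Hsp90aa1 at chr12:110690605-110702728, on the plus and the minus strand. Dnajb1 lies at chr8:83608193-83612653, Dnaja4 at chr9:54698873-54716315 and Bag3 at chr7:128523616-128546981, all on the plus strand.

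In LEC-like cells 9 of the 10 genes were lower in the live draining node than in the live non-draining node, and Hspa8 was the exception. Log2 fold changes of the 9 ran from -0.62 for Bag3 to -1.71 for Hspb1. No library of one node reached the range of the other, but the share of all genes without such overlap is not given here. The fixed inoculum went the other way, with 8 of the 10 genes higher in the draining node. Calls are from edgeR's quasi-likelihood test with Benjamini-Hochberg adjustment over all genes, at an adjusted p under 0.05. Of all 14065 genes tested, 31.4% were called between the live nodes and 15.0% were called lower. Levels are UMIs per 1000000 UMIs of the class (CPM), after TMM scaling.

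The HSP70 pair refolds damaged proteins. Hspa1a stood at 768, 839, 818 and 775 CPM in the naive libraries A to D, at 755, 824 and 734 in the live non-draining libraries A to C and at 279, 363 and 312 in the live draining ones. The draining libraries all lay under the other 7, and the live non-draining libraries overlapped the naive ones. The live draining effect of Hspa1a was -1.28 (SE 0.091, adjusted p = 4.05e-10). With fixed cells the order turned, with 313, 281 and 331 CPM in the fixed draining and 126, 133 and 97.1 in the fixed non-draining libraries. These 6 libraries lay below every naive library. The fixed draining effect was 1.36 (SE 0.10, adjusted p = 4.37e-08). Hspa1b stood at 1979.9, 2398, 1994 and 2183 CPM in the naive libraries A to D, at 2385, 2823 and 2287 in the live non-draining libraries A to C and at 802, 997 and 928 in the live draining ones. Again only the draining node was low after live cells, with an effect of -1.46 (SE 0.083, adjusted p = 1.91e-14). Fixed cells gave 974, 999.6 and 1032 CPM in the fixed draining and 583, 542 and 591 in the fixed non-draining libraries, an effect of 0.81 (SE 0.084, adjusted p = 3.84e-07). The 2 nodes did not overlap, and both lay below the naive nodes.

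Hspb1, the small heat shock protein that binds unfolded proteins and actin, had the largest live effect. Hspb1 stood at 639, 714, 609.9 and 767 CPM in the naive libraries A to D, at 562, 681 and 538 in the live non-draining libraries A to C and at 143, 185 and 219 in the live draining ones. The live draining libraries held at most 219 CPM and the other 7 at least 538. The effect was -1.71 (SE 0.15, adjusted p = 2.39e-06). With fixed cells the libraries held 257, 269 and 239 CPM in the fixed draining and 148, 128 and 157 in the fixed non-draining libraries. The nodes did not overlap here either, at an effect of 0.82 (SE 0.16, adjusted p = 0.0206). This last call was lost without fixed draining A or B or without fixed non-draining A or B, at log2 fold changes of 0.75 to 0.88 over all left-out libraries.

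The partners of HSP70 were low in the same draining libraries. Hsph1 exchanges the nucleotide of HSP70, and it was the member with a call between live non-draining and naive nodes. Hsph1 stood at 511, 525, 451 and 529 CPM in the naive libraries A to D, at 583, 583 and 666 in the live non-draining libraries A to C and at 233, 260.0 and 261 in the live draining ones. The live non-draining libraries lay above all naive ones, and the draining ones below. The live effect was -1.28 (SE 0.075, adjusted p = 4.85e-14). Dnajb1 and Dnaja4 are J-domain proteins, which hand substrates to HSP70. Dnajb1 stood at 309.6, 343, 316 and 329 CPM in the naive libraries A to D, at 322, 367 and 339 in the live non-draining libraries A to C and at 119, 158 and 139.8 in the live draining ones. The live effect of Dnajb1 was -1.30 (SE 0.077, adjusted p = 2.22e-13), with the draining libraries apart from the other 7. Dnaja4 stood at 50.7, 56.2, 57.4 and 63.5 CPM in the naive libraries A to D, at 55.5, 69.7 and 40.9 in the live non-draining libraries A to C and at 22.1, 26.7 and 22.4 in the live draining ones. Dnaja4, the least abundant member in LEC-like cells by CPM, fell by 1.21 on the log2 scale (SE 0.14, adjusted p = 3.35e-07). Bag3 couples HSP70 to the disposal of damaged proteins. Bag3 stood at 109, 123, 114 and 113 CPM in the naive libraries A to D, at 103, 95.1 and 91.5 in the live non-draining libraries A to C and at 68.0, 58.6 and 64.0 in the live draining ones. Its change was the smallest of the 9, at -0.62 (SE 0.082, adjusted p = 2.62e-07), and its live non-draining libraries lay under the naive ones.

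After fixed cells Hsph1, Dnajb1 and Bag3 were again lower in the non-draining node. Hsph1 held 327, 345 and 349 CPM in the fixed draining and 198, 205 and 252 in the fixed non-draining libraries, and Dnajb1 held 154, 173 and 177 CPM in the fixed draining and 109, 116 and 116 in the fixed non-draining libraries. Neither gene overlapped between the nodes, with effects of 0.65 (SE 0.078, adjusted p = 7.26e-06) for Hsph1 and 0.57 (SE 0.084, adjusted p = 0.000208) for Dnajb1. Bag3 held 52.9, 60.7 and 61.1 CPM in the fixed draining and 44.2, 50.5 and 35.8 in the fixed non-draining libraries, an effect of 0.40 (SE 0.095, adjusted p = 0.0158) that was lost without fixed draining B or C or fixed non-draining A or C. Dnaja4 held 26.4, 23.6 and 29.4 CPM in the fixed draining and 24.7, 20.2 and 25.6 in the fixed non-draining libraries. Its nodes overlapped, and the effect was 0.16 (SE 0.16, adjusted p = 0.766).

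Hsp90aa1, the inducible cytosolic HSP90, and Hspd1, the mitochondrial HSP60, moved with the HSP70 group. Hsp90aa1 stood at 796, 919.7, 753 and 798 CPM in the naive libraries A to D, at 791, 819.8 and 820.4 in the live non-draining libraries A to C and at 427, 436 and 431 in the live draining ones. The live effect was -0.91 (SE 0.064, adjusted p = 1.67e-13). Hspd1 showed a smaller change of the same kind. Hspd1 stood at 205, 237, 220.4 and 213 CPM in the naive libraries A to D, at 227, 227 and 206 in the live non-draining libraries A to C and at 138, 126 and 129 in the live draining ones. The live effect was -0.75 (SE 0.064, adjusted p = 1.98e-11). In the fixed nodes Hsp90aa1 held 425, 458 and 463 CPM in the fixed draining and 343, 360.3 and 325 in the fixed non-draining libraries, and Hspd1 135, 148 and 144 CPM in the fixed draining and 113, 102 and 119.9 in the fixed non-draining libraries. Both genes were higher in the fixed draining node without overlap, by 0.39 (SE 0.066, adjusted p = 0.000623) and 0.35 (SE 0.069, adjusted p = 0.00273).

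Hspa8, the constitutive HSP70 that also strips clathrin from vesicles, stood apart. Hspa8 stood at 1085, 1205, 1149 and 1144 CPM in the naive libraries A to D, at 1168, 1112 and 1036 in the live non-draining libraries A to C and at 1074, 1044 and 1093 in the live draining ones. These 10 libraries overlapped, and the live effect was -0.047 (SE 0.063, adjusted p = 0.615). Fixed cells gave 979.9, 998 and 905 CPM in the fixed draining and 929, 842 and 841 in the fixed non-draining libraries. That effect did not pass the test either, at 0.14 (SE 0.064, adjusted p = 0.333).

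**Figure D1:**
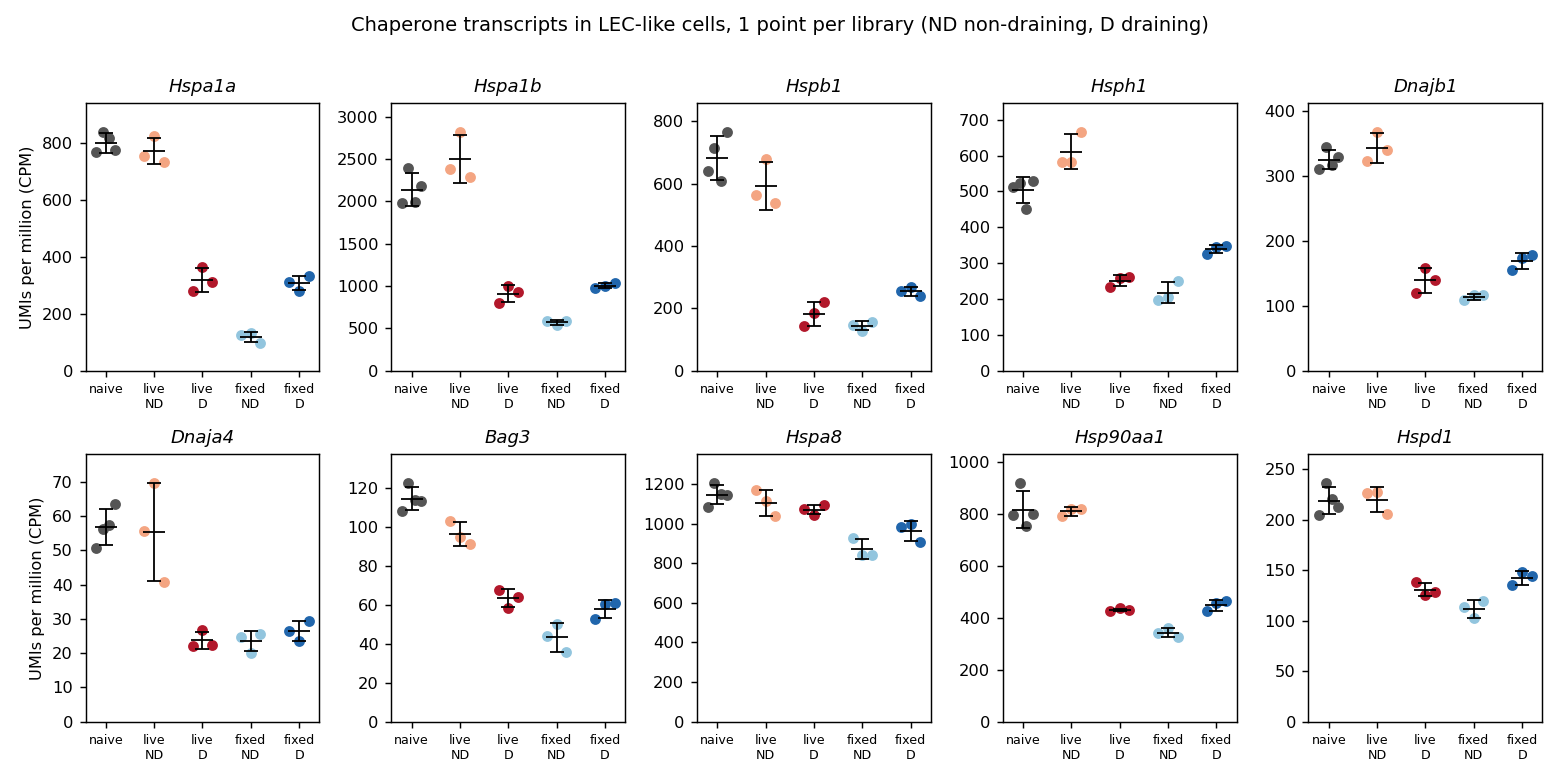
CPM (y axis from 0) of the 10 genes in LEC-like cells of 16 libraries, 1 point per library with mean and SD bars, in naive, live and fixed groups (ND non-draining, D draining). Hspa1a sits at 734 to 839 in the naive and live non-draining libraries, at 279 to 363 in the live draining ones and at 97.1 to 133 in the fixed non-draining ones, while Hspa8 changes little.

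Of all genes in LEC-like cells, 2.01% were called between the fixed nodes and 1.14% were called higher, beside the 8 of 10 chaperone genes. The difference between the live and the fixed draining effect was tested in the same fit. It passed for 9 of the 10 genes, all lower, against 19.8% of all genes called and 9.21% called lower. This difference was -2.64 (SE 0.14, adjusted p = 6.29e-12) for Hspa1a and -2.53 (SE 0.22, adjusted p = 4.88e-06) for Hspb1. It was -0.19 (SE 0.090, adjusted p = 0.141) for Hspa8. Each effect is taken against its own non-draining node, and the live and fixed draining libraries overlapped for 7 of the 10 genes. With at most 50 LEC-like cells per library the 9 live changes kept their sign, but the test then called 1 of the 10 genes, Hsp90aa1, and 268 of 8317 genes overall.

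Each inoculated group was also compared with the naive nodes. The comparisons share the naive libraries, so their values are set side by side only. Between live non-draining and naive nodes 1 of the 10 genes was called, Hsph1 at 0.28 (SE 0.068, adjusted p = 0.0286), where 1.96% of all genes were called and 1.24% called higher. This call was lost without naive A or C or live non-draining B or C. Live draining nodes were lower than naive ones in 9 genes (31.3% of all genes called, 14.7% lower). Fixed draining nodes were lower in all 10 (3.26% called, 1.88% lower). Fixed non-draining nodes were also lower in all 10 (5.69% called, 3.09% lower). With at most 50 cells per library the last 3 counts fell to 3, 1 and 5, with no shares over all genes given at that limit. The median over the 10 genes was -0.026 for live non-draining against naive, -1.11 for live draining, -0.97 for fixed draining and -1.32 for fixed non-draining, and that of all genes tested was -0.010 to 0.0037 over the same comparisons.

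By the median over the 10 genes, fixed non-draining nodes were furthest from naive. Their libraries overlapped those of another inoculated group for Hspb1, Hsph1, Dnaja4 and Hspa8. Hspa1a in fixed non-draining nodes fell by 2.74 on the log2 scale (SE 0.099, adjusted p = 3.22e-14). Hspb1 fell by 2.24 (SE 0.15, adjusted p = 2.87e-06). Hspa8 was lower by a smaller amount, -0.39 (SE 0.060, adjusted p = 3.86e-05) in the fixed non-draining and -0.25 (SE 0.059, adjusted p = 0.00925) in the fixed draining node. The latter call of Hspa8 was lost without fixed draining C. The 10 genes together made up 0.679% ± 0.0405 of the UMIs of LEC-like cells in naive nodes (SD, n = 4), 0.712% ± 0.0464 after live cells on the non-draining side and 0.339% ± 0.0178 on the draining side, and 0.258% ± 0.00524 after fixed cells on the non-draining side and 0.376% ± 0.00812 on the draining side (SD, n = 3 each).

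Other measures moved with these groups. In LEC-like cells the summed level of 78 markers of other lineages was 0.235% to 0.242% of UMIs in the live draining libraries and 0.171% to 0.187% in the others. Of the 47 that could be tested, 18 were higher and 5 lower in the live draining node, and 6 were higher in the fixed draining node. None of the 78 was at 0 in every library, and Dcn, a fibroblast matrix gene, had a UMI in 34.1% of LEC-like cells. Median UMIs per LEC-like cell were 9420.5 to 10588 in live draining and 6587 to 8065 in live non-draining libraries. They were 7527.5 to 8745 in fixed draining, 6298 to 7664.5 in fixed non-draining and 8245 to 10019 in naive libraries. Median mitochondrial shares ran from 2.59% in a naive library to 4.13% in a fixed non-draining one. Of the LEC-like cells, fLEC-like cells were 17.5% in live draining libraries together and 11.0% to 13.1% in the other groups. Their part in the result was not tested.

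Library codes end in 06, 07 or 09, and the sources used here do not say what the ending means. The live libraries end in 06 or 07, and all fixed libraries except fixed draining C in 09, so the ending and the inoculum cannot be fully told apart. Within ending 06 the live draining effect of Hspa1a in LEC-like cells was -1.30, within 07 it was -1.24, and the fixed effect within 09 was 1.32. For Hspb1 the same values were -1.92, -1.30 and 0.87. Naive A, the naive library ending in 09, held 768 CPM of Hspa1a, against 775 to 839 in the naive libraries ending in 06. Fixed draining C, ending in 06, held 331 CPM, against 281 to 313 in those ending in 09. In fibroblastic-like cells the same library held 304 CPM of Hspa1a, against 386 to 391, and 501 of Hspa1b, against 626 to 641. It was also lower for Dnajb1, Bag3 and Hspa8. It was higher for Dnaja4 and Hsp90aa1 and within their range for Hspb1, Hsph1 and Hspd1.

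In fibroblastic-like cells 7 of the 10 genes were lower in the live draining node, and Hspb1 was higher. Of all 15100 genes, 27.2% were called, 12.6% lower and 14.5% higher. Hspa1a stood at 752, 673, 684 and 739 CPM in the naive libraries A to D, at 533, 730.0 and 687 in the live non-draining libraries A to C and at 305, 265 and 303 in the live draining ones. The draining libraries lay well apart from the other 7, at an effect of -1.16 (SE 0.19, adjusted p = 0.000784). With library letters as a replicate block it was -1.15, at an adjusted p of 0.0572. Hspa1b, its twin, held 895, 1214 and 1170.2 CPM in the live non-draining and 456, 387 and 470.2 in the live draining libraries. It changed by -1.32 (SE 0.14, adjusted p = 2.79e-05). Dnajb1 stood at 189.8, 183, 161 and 193 CPM in the naive libraries A to D, at 108, 152 and 164 in the live non-draining libraries A to C and at 82.7, 65.2 and 65.7 in the live draining ones. The J-domain gene Dnajb1 changed by -0.95 (SE 0.16, adjusted p = 0.000756) without overlap of the nodes. Hsph1 held 101, 159.6 and 158 CPM in the live non-draining and 82.5, 74.1 and 74.6 in the live draining libraries, a change of -0.82 (SE 0.18, adjusted p = 0.00439). Hsp90aa1 changed by -0.47 (SE 0.063, adjusted p = 4.62e-07). The calls of the lower-count partners were less steady. Dnaja4 changed by -0.49 (SE 0.15, adjusted p = 0.0152), lost without live non-draining B or C. Bag3 changed by -0.24 (SE 0.081, adjusted p = 0.0243), lost without live draining B or C or live non-draining B or C.

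Hspb1 went against the others in this class. Hspb1 stood at 129, 122, 145 and 161 CPM in the naive libraries A to D, at 100.4, 139 and 113 in the live non-draining libraries A to C and at 174, 174 and 178 in the live draining ones. The live draining libraries lay above all other 13 libraries of the class. Their effect was 0.60 (SE 0.16, adjusted p = 0.0174). The call was lost without live non-draining A or C, at a log2 fold change of at least 0.49. The make-up of the class moved with it. MRC-like cells, high in Hspb1 in naive nodes, were 12.0% of fibroblastic-like cells in live draining libraries together, against 6.62% in live non-draining and 5.47% in naive ones, and MedRC-like cells, low in Hspb1, were 8.17% against 18.0% and 21.1%. The part of this in the result was not tested. Hspa8 held 660.4, 621 and 668 CPM in the live draining and 563, 620.1 and 589 in the live non-draining libraries, an effect of 0.14 (SE 0.057, adjusted p = 0.0656). Hspd1 held 139, 133 and 137 and 136, 157 and 136 CPM, an effect of -0.065 (SE 0.065, adjusted p = 0.5).

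None of the 10 genes passed between the fixed nodes in fibroblastic-like cells. The edgeR test called 0, against 0.0861% of all genes, and DESeq2 called 0 too. In edgeR 4 had an unadjusted p under 0.05, for which no share over all genes is given. Hspa1a held 391, 386 and 304 CPM in the fixed draining and 254, 296 and 480.0 in the fixed non-draining libraries, an effect of 0.099 (SE 0.20, adjusted p = 0.95). Fixed non-draining C stood above the other 2 libraries of its group. Dnajb1 held 101, 105 and 87.6 CPM in the fixed draining and 68.3, 53.8 and 74.7 in the fixed non-draining libraries, an effect of 0.59 (SE 0.20, adjusted p = 0.543). The live effect was lower than the fixed one in 6 genes, Hspa1a, Hspa1b, Hsph1, Dnajb1, Bag3 and Hsp90aa1, against 11.4% of all genes called and 5.04% lower. This difference was -1.57 (SE 0.21, adjusted p = 0.000476) for Hspa1b and -1.54 (SE 0.26, adjusted p = 0.00249) for Dnajb1. With library letters as a replicate block the calls of Hspa1a and Dnajb1 were lost. With at most 50 cells per library edgeR called 0 of the 9 genes that then passed the filter between the live nodes, at adjusted p of 0.134 or more, and the change of Hspb1 was -0.027. The call of Bag3, at -0.41 (SE 0.13, adjusted p = 0.044), was lost when any 1 of 11 of the 16 libraries was left out.

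**Figure D2:**
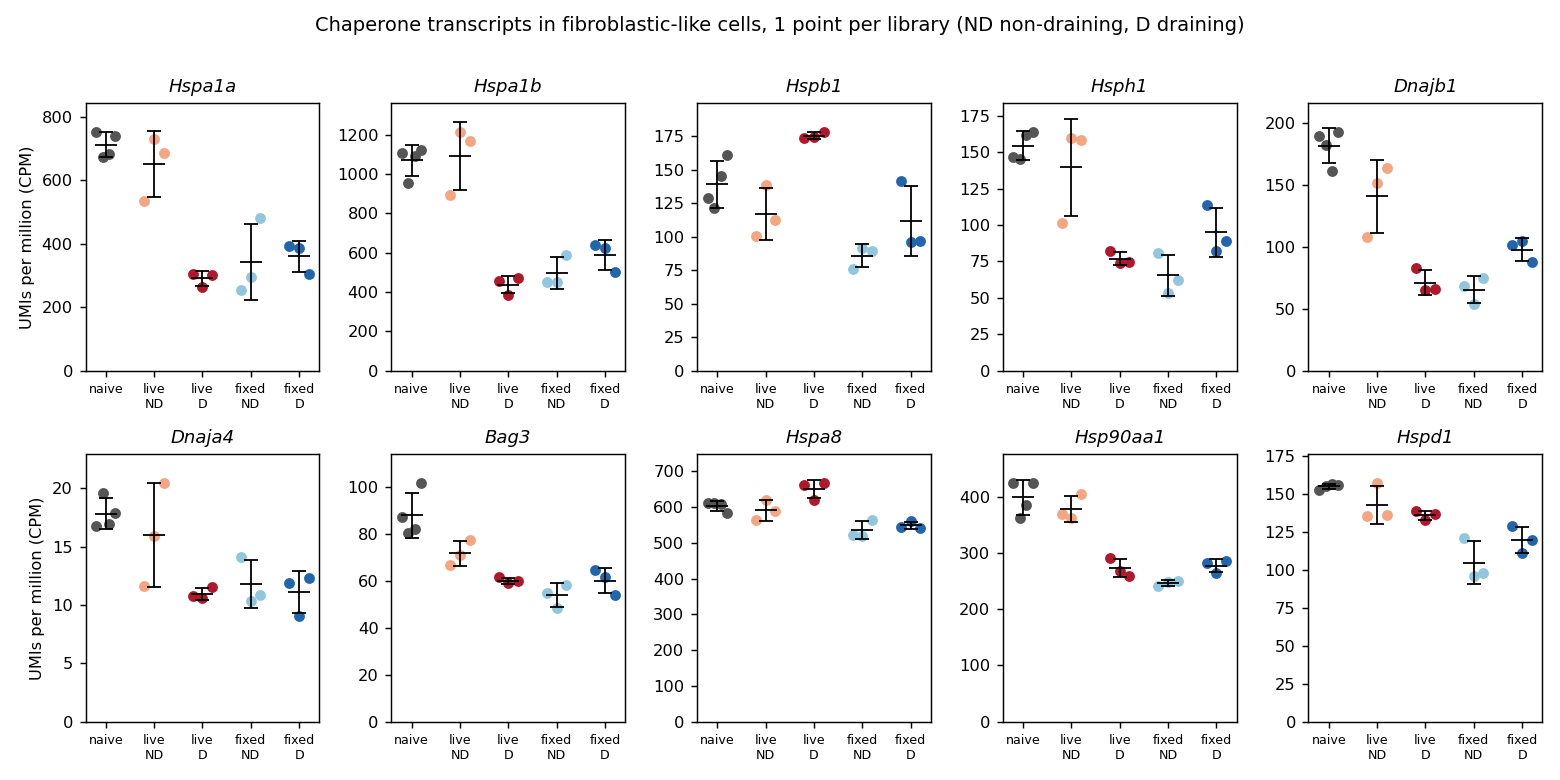
CPM (y axis from 0) of the 10 genes in fibroblastic-like cells of 16 libraries, 1 point per library with mean and SD bars, in the same groups as for LEC-like cells. Hspb1 is highest in the live draining libraries at 174 to 178, whereas Hspa1a is at 265 to 305 there and at 673 to 752 in the naive ones.

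The genes together made up 0.356% ± 0.0169 of fibroblastic-like UMIs in naive nodes (SD, n = 4), 0.334% ± 0.0424 after live cells on the non-draining side and 0.214% ± 0.0108 on the draining side, and 0.200% ± 0.0239 after fixed cells on the non-draining side and 0.227% ± 0.0165 on the draining side (SD, n = 3 each). Against naive nodes 8 genes were called lower in live draining nodes (37.7% of all genes called, 17.7% lower) and 1 in live non-draining nodes (3.41% and 1.21%). Bag3 was that gene, at -0.31 (SE 0.077, adjusted p = 0.0184). The fixed draining nodes had 8 lower (10.7% and 5.00%). The fixed non-draining nodes had 7 lower (6.46% and 2.83%). Hspb1 in live draining nodes differed from naive by 0.34 (SE 0.14, adjusted p = 0.0776). The summed level of 71 markers of other lineages in these cells was 0.103% to 0.117% in the live draining and 0.0720% to 0.103% in the other libraries. Of the 51 tested, 10 were higher and 6 lower in the live draining node. Median mitochondrial shares of these cells were 4.79% to 5.04% in fixed draining and 4.31% to 5.10% in fixed non-draining libraries. They were 3.42% to 3.97% in live draining, 3.62% to 4.47% in live non-draining and 3.23% to 3.76% in naive libraries. Their part in the result was not tested.

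The same fit was run in 15 further classes, 8 other lineages and 7 subsets of the LEC-like and fibroblastic-like cells, and 139 of 150 pairs of a gene and a class passed the filter on low counts. Those that did not were Dnaja4 in 7 classes, Bag3 in B-like, plasma-like and T-like cells, and Hspb1 in mast-like cells. Between the live nodes 52 pairs were called, all lower, against 8% of all genes tested in these classes. Between the fixed nodes 8 were called, all higher, against 0.796% of all genes in the same fit. This count moved with the method (22 with DESeq2, 28 without a filter on low counts, 18 with a replicate block, 2 with at most 50 cells and 4 to 12 with a library left out). The difference of the effects was called in 47 pairs, all lower, against 3.67%. By class the difference was called for 10 genes in cLEC-like (14.0% of all genes), 9 in fLEC-like (6.44%), 8 in MedLEC-like (4.47%), 5 in monocyte- and macrophage-like (2.84%), 4 in MRC-like (4.53%) and 3 in TRC-like cells (0.370%). It was called for 2 in BEC-like (0.105%), DC-like (7.02%) and mast-like cells (0.380%) and for 1 in pericyte-like (0.195%) and plasma-like cells (2.69%). The subsets are nested in the classes above and add no independent libraries.

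Hspa1b was called between the live nodes in 10 of the 15 classes, Hspa1a and Hsp90aa1 in 8, Dnajb1 in 6, Hspb1 and Hsph1 in 5, Hspd1 in 4 and Dnaja4 and Bag3 in 3. Hspa8 did not pass in any, at adjusted p of 0.141 or more and log2 fold changes of -0.77 to 0.23. Over all classes Hspa1a and Hspa1b had negative live effects throughout, from -3.33 in plasma-like cells to -0.46 in DC-like cells, both for Hspa1a, though not all of them passed the test.

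Among LEC subsets, ceiling-like cells (cLEC, the outer wall of the subcapsular sinus) had 9 of 10 genes called, floor-like cells (fLEC, its inner wall) 9 and medullary-like cells (MedLEC) 8, against 20.4%, 17.1% and 12.3% of all genes. Hspb1 in cLEC-like cells held 928, 1217, 952 and 1235 CPM in naive, 823, 1165 and 870.5 in live non-draining and 208, 291 and 368 in live draining libraries. The draining libraries were the low ones, at an effect of -1.72 (SE 0.20, adjusted p = 8.27e-05). Hspb1 in fLEC-like cells held 76.1, 123 and 111 CPM in fixed draining and 78.5, 49.4 and 36.0 in fixed non-draining libraries, all under the naive libraries at 466, 370.3, 532 and 331. The live effect in fLEC-like cells was -2.25 (SE 0.26, adjusted p = 6.39e-05). In cortical-like LECs (CorLEC, 15 libraries) edgeR called 0 of 10 genes, with 0 at an unadjusted p under 0.05 and 0 by DESeq2, against 1.49% of all genes. Hspa1b there held 278, 648 and 88.6 CPM in live non-draining and 96.3, 116 and 416 in live draining libraries, from 52, 65 and 10 and 18, 20 and 99 UMIs. The libraries of these nodes overlapped. Whether CorLEC-like cells differ from the other subsets was not tested.

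Among fibroblastic subsets, T-zone-like cells (TRC) had 5 genes called, marginal-like cells (MRC) 4 and medullary-like cells (MedRC) 1, against 2.97%, 15.1% and 4.91% of all genes. Hspa1a in TRC-like cells held 589.6, 333, 661 and 505 CPM in naive, 413, 449 and 472 in live non-draining and 71.1, 70.1 and 109 in live draining libraries. The draining libraries lay apart, at an effect of -2.44 (SE 0.32, adjusted p = 0.00146). Hspa1b changed by -1.43 (SE 0.35, adjusted p = 0.017) in MRC-like cells, a call lost without live draining B or C or live non-draining C. Hsp90aa1 was the gene called in MedRC-like cells, at -0.76 (SE 0.13, adjusted p = 1.42e-05). Hspb1 passed in none of these subsets, with live effects of -0.76 in TRC-like, 0.41 in MRC-like and 0.47 in MedRC-like cells, so the rise of Hspb1 in fibroblastic-like cells as a whole was not seen as a call within a subset.

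Among other lineages, monocyte- and macrophage-like cells had 5 genes called lower in the live draining node and mast-like cells 4, against 3.86% and 1.03% of all genes. Hspa1b in monocyte- and macrophage-like cells held 1648, 1945 and 2515 CPM in live non-draining and 708, 575 and 688 in live draining libraries, an effect of -1.63 (SE 0.22, adjusted p = 0.0013). It was also higher in the fixed draining than in the fixed non-draining node there, at 1.21 (SE 0.23, adjusted p = 0.015), which was lost without fixed non-draining A at 0.94. The genes called in mast-like cells were Hspa1a, Hspa1b, Dnajb1 and Hsp90aa1. Mast-like Hspa1b held 5701, 6608 and 4538 CPM in live non-draining and 2693, 1156 and 972 in live draining libraries, an effect of -1.70 (SE 0.32, adjusted p = 0.0147) that was lost when any 1 of 8 libraries was left out.

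Blood endothelial-like cells (BEC), pericyte-like and plasma-like cells had 2 called genes each in edgeR, against 3.96%, 5.60% and 2.46% of all genes. DESeq2 called 4 in each, for which no share of all genes is given. Hspb1 and Hspa1b were the genes that edgeR called in BEC-like cells, where Hspb1 held 1101, 1490.3 and 1086 CPM in live non-draining and 654, 553 and 774 in live draining libraries. Its effect there was -0.89 (SE 0.22, adjusted p = 0.0225), lost without live draining A or B or live non-draining B. Hspa1a in pericyte-like cells held 1069, 1050.3, 561 and 1723 CPM in naive, 1117, 1450.2 and 1380.2 in live non-draining, 167, 242 and 59.7 in live draining, 1316, 1085 and 1230.2 in fixed draining and 596, 1369 and 1123 in fixed non-draining libraries. Only the live draining libraries lay outside the naive range here, at -3.06 (SE 0.48, adjusted p = 0.00281). In plasma-like cells Hspa1a was highest in naive nodes, at 1969, 2265, 4083 and 909.9 CPM. The live non-draining libraries held 531, 902 and 368 and the live draining ones 62.1, 69.6 and 45.6, an effect of -3.33 (SE 0.77, adjusted p = 0.0483) from 12 to 71 cells per library. This call was lost when any 1 of 13 of the 16 libraries was left out, at log2 fold changes of -3.56 to -2.92 over all 16.

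Dendritic-like cells (DC) had 1 called gene in edgeR and 0 in DESeq2, against 6.34% of all genes. It was Hspb1, which held 17.2, 11.1 and 13.1 CPM in live non-draining and 9.20, 4.27 and 6.48 in live draining libraries, an effect of -1.12 (SE 0.33, adjusted p = 0.0301) that was lost without live draining B or C or live non-draining A or C. It was also called between the fixed nodes, at 2.09 (SE 0.47, adjusted p = 0.00359), lost without fixed non-draining A at 1.44, from 45, 30 and 26 UMIs in the draining and 1, 2 and 4 in the non-draining libraries. In naive nodes Hspb1 in these cells was near its level in B-like and T-like cells, and free RNA cannot be told apart from expression at such counts. B-like cells (0 of 8 genes called, 1.86% of all genes) and T-like cells (0 of 9, 4.44%) had no call in edgeR, with 1 and 3 genes at an unadjusted p under 0.05 and 0 and 1 called by DESeq2. The 8 pairs called between the fixed nodes were Hspa1a, Hspa1b and Hsp90aa1 in monocyte- and macrophage-like cells, Hspa1a, Hsph1 and Hsp90aa1 in cLEC-like cells and Hspb1 and Hspa8 in DC-like cells. Hspa1a in cLEC-like cells, at 2.04 (SE 0.38, adjusted p = 0.049), was lost when any 1 of 14 of the 16 libraries was left out.

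**Figure D3:**
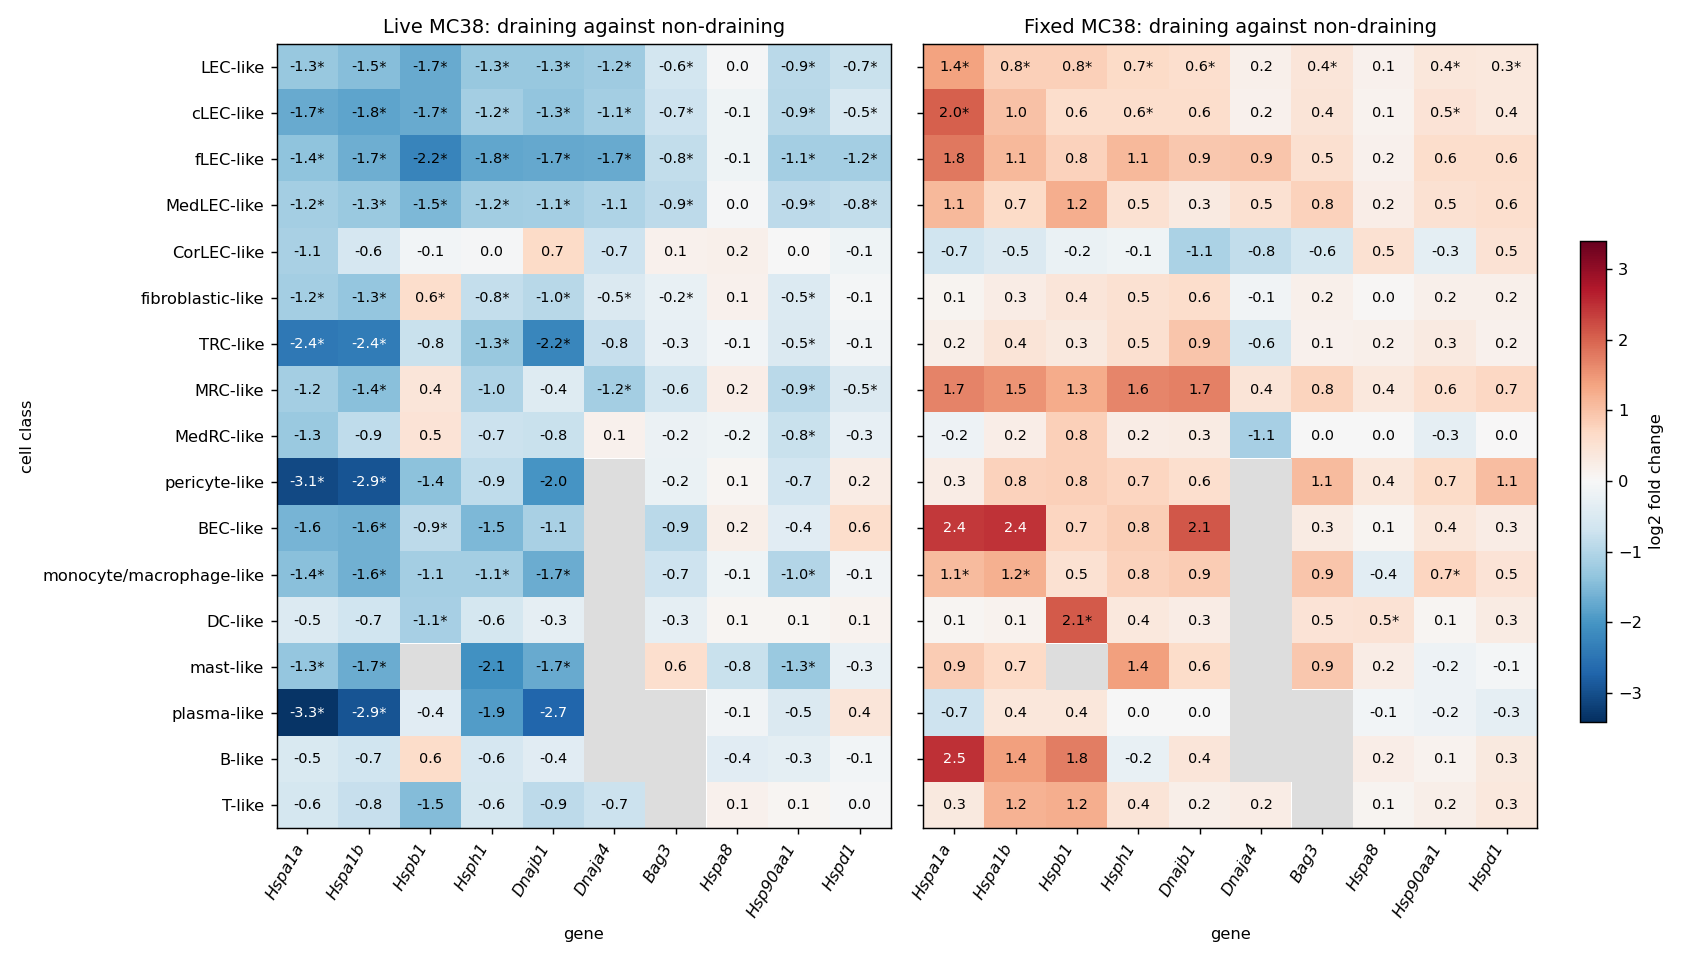
Log2 fold change (color scale) of each of the 10 genes (x axis) in 17 cell classes (y axis), draining against non-draining node, after live MC38 cells on the left and fixed MC38 cells on the right. An asterisk marks an adjusted p under 0.05 in edgeR and grey a gene under the filter on low counts. All asterisks on the left stand on negative values except Hspb1 in fibroblastic-like cells, and all those on the right on positive values.

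At rest the genes differed in where they were read. These naive levels are plain CPM without TMM scaling, mean ± SD over 4 libraries, and each gene is compared with itself only, since 3′ UMIs do not compare genes. Hspb1 was highest in BEC-like cells, at 1271 ± 276, and cLEC-like cells, at 1074 ± 164, which did not differ beyond their SDs. It then stood at 470.2 ± 62.6 in MRC-like, 421 ± 91.3 in fLEC-like and 409.8 ± 26.7 in MedLEC-like cells, and at 20.6 ± 7.4 in T-like and 18.5 ± 3.27 in DC-like cells. Hspa1a spanned 2008 ± 507 in mast-like to 115 ± 97.8 in CorLEC-like cells. Most neighbours between these ends lay within an SD of each other. Hspa8 was highest in DC-like cells, at 1452 ± 31.6, beyond the SD of cLEC-like cells at 1332 ± 67.6. Hsph1 led in cLEC-like cells, at 657 ± 81.4, and Hspd1 was highest in MRC-like cells, at 307 ± 25, within an SD of fLEC-like cells at 274 ± 58.6.

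**Figure D4:**
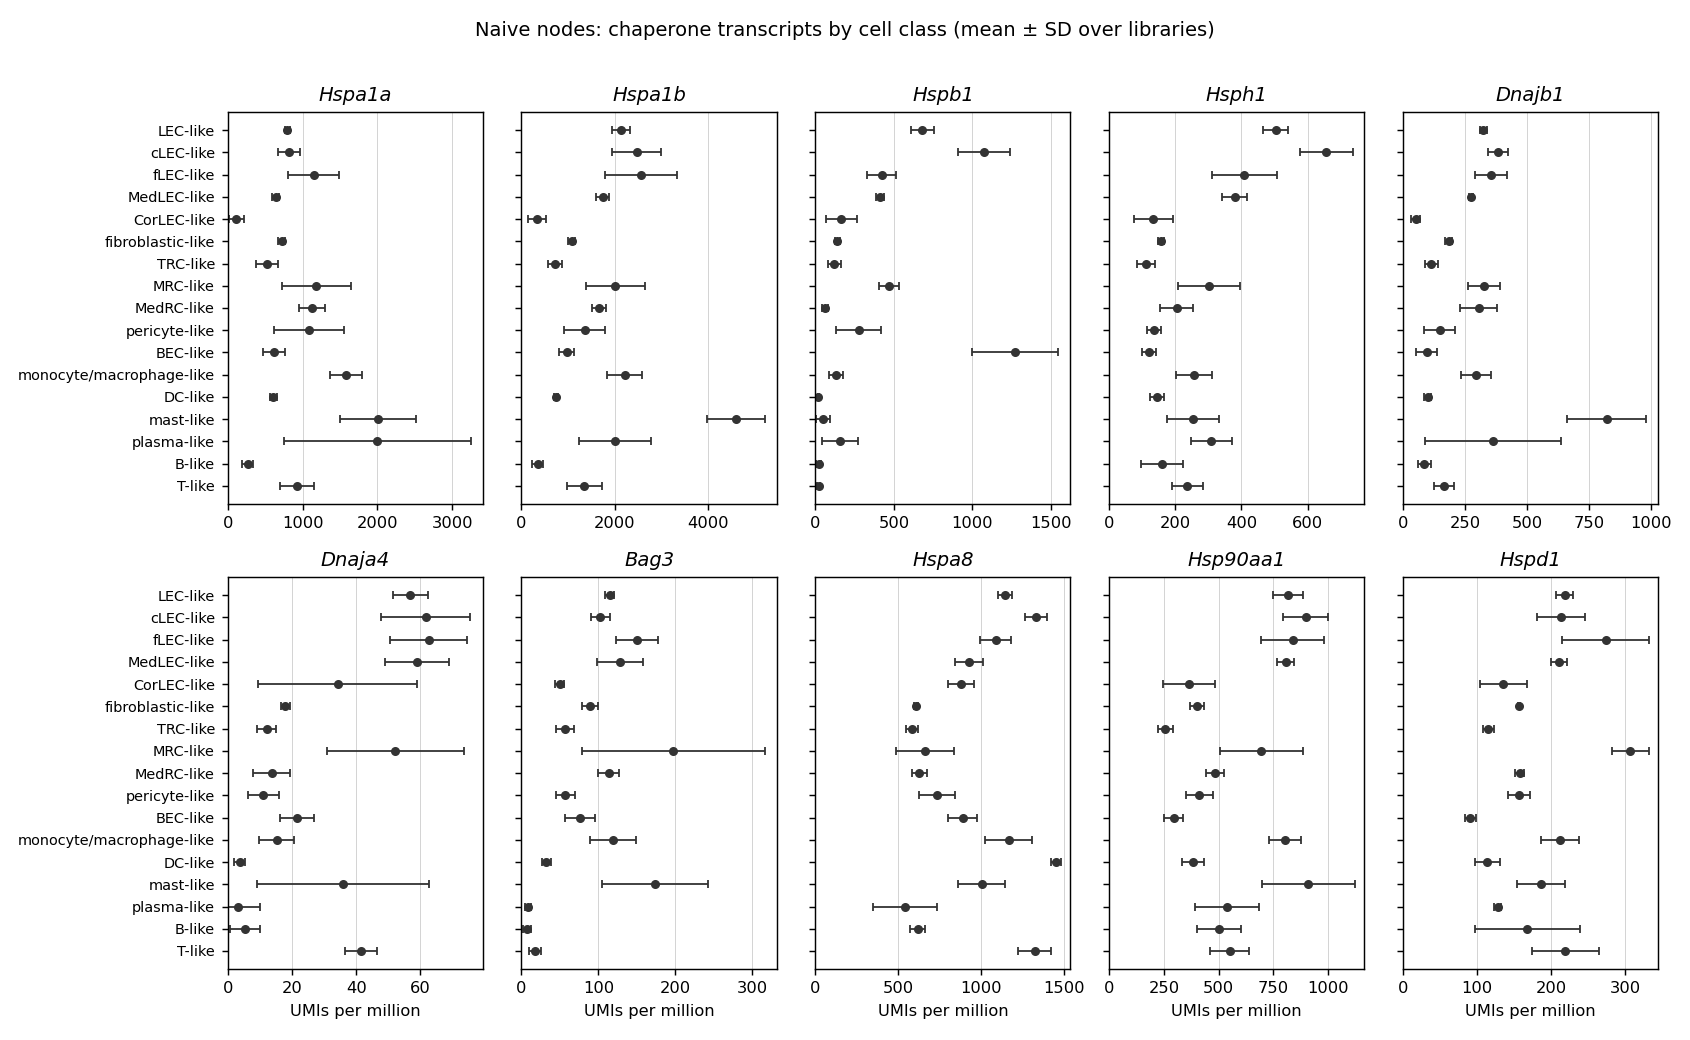
Plain CPM (x axis from 0, separate scale per gene) of the 10 genes in 17 cell classes (y axis) of naive nodes, points at the mean and bars of 1 SD over 4 libraries. Hspb1 is at 410 or above in BEC-like, cLEC-like, fLEC-like and MedLEC-like cells and at 155 or below in every immune class, while Hspa1b and Dnajb1 are highest in mast-like cells.

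Fewer UMIs in a class can mean fewer cells with the transcript or less of it per cell. Each cell was thinned to 2000 UMIs and the share of cells with a UMI was taken per library. Thinning left out 5.06% to 9.55% of LEC-like cells by group. This share cannot separate these readings, because at low counts less transcript per cell also lowers it. Thinned naive LEC-like cells held a mean of 1.46 Hspa1a UMIs, at a median of 0. In LEC-like cells the share with Hspa1a was 33.6% ± 2.15 in naive nodes (SD, n = 4). After live cells it was 34.6% ± 1.21 on the non-draining and 19.9% ± 1.86 on the draining side, and after fixed cells 10.6% ± 0.881 and 18.8% ± 0.0954 in the same order (SD, n = 3 each). The share with Hspa8 was 74.3% ± 5.09 and 74.4% ± 1.77 after live cells. The share with Hspb1 was 39.4% ± 2.13 in naive, 36.3% ± 1.76 in live non-draining and 20.0% ± 1.51 in live draining nodes. In naive B-like and T-like cells, where Hspb1 was low, the share was 2.71% and 4.82% after the same thinning. It left out 62.9% of these B-like and 18.2% of these T-like cells. Median depths before thinning were 1492 and 5710 UMIs, against 8985 in naive LEC-like cells.

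With 3 libraries against 3, the exact two-sided permutation test cannot go below 0.10, so no difference between these shares can pass 0.05. The transcripts were unevenly spread. The 10% of naive LEC-like cells with most of the gene held 65.6% of Hspa1a UMIs and 30.3% of Hspa8 UMIs after thinning, and 80.5% of Hspa1a UMIs in live draining nodes.

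Related genes were counted from lists of other chaperones. Of 29 further cytosolic chaperones and co-chaperones tested in LEC-like cells, 3 were higher and 5 lower in the live draining node. Among all genes, 31.4% were called there and 15.0% called lower. In the fixed draining node 1 of the 29 was higher, against 1.14% of all genes. Lower than in naive nodes were 9, 9 and 11 in live draining, fixed draining and fixed non-draining nodes, against 14.7%, 1.88% and 3.09% of all genes. Dnajb4, a J-domain gene, changed by -0.70 (SE 0.070, adjusted p = 7.9e-10) between the live nodes and by 0.33 (SE 0.074, adjusted p = 0.0103) between the fixed ones. Hspa4l, an HSP110, changed by -0.60 (SE 0.070, adjusted p = 1.63e-08), and Dnaja1, another J-domain gene, by -0.49 (SE 0.058, adjusted p = 2.79e-08). Hsf1, named here after its value was seen, had a live effect of 0.14 (adjusted p = 0.468). The median over the 29 was -0.012 in the live contrast, against -0.011 for all genes.

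The 8 subunits of TRiC, the chaperonin that folds actin and tubulin, did not share the fall. In LEC-like cells 6 were higher in the live draining node and none lower, at a median of 0.24, and in fibroblastic-like cells all 8 were higher. Between the live nodes 31.4% of all genes were called in LEC-like cells, and 14.5% were called higher in fibroblastic-like cells. Cct2 rose by 0.38 (SE 0.065, adjusted p = 2.48e-05), Cct3 by 0.35 (SE 0.063, adjusted p = 3.33e-05), Cct8 by 0.24 (SE 0.058, adjusted p = 0.00137) and Cct6a by 0.23 (SE 0.062, adjusted p = 0.0042) in LEC-like cells. Between the fixed nodes the median over the 8 was 0.056 in LEC-like and 0.013 in fibroblastic-like cells. Of 8 mitochondrial chaperones and proteases in LEC-like cells, Hspe1, the partner of Hspd1, was lower in the live draining node, at -0.38 (SE 0.066, adjusted p = 2.83e-05), and Grpel1, a nucleotide exchange factor, was higher, at 0.47 (SE 0.11, adjusted p = 0.0015). Clpp and Lonp1, proteases of the list, gave 0.21 (SE 0.10, adjusted p = 0.113) and 0.077 (SE 0.095, adjusted p = 0.579).

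Immediate early genes, which respond to stress and to dissociation, were set beside the chaperones. Of 26 tested in LEC-like cells, 20 were lower and 2 higher in the live draining node, at a median of -0.94, and 9 were higher in the fixed draining node. Among all genes, 15.0% were called lower between the live nodes and 1.14% higher between the fixed ones. Against naive nodes 18 immediate early genes were lower in live draining nodes and 6 higher, at a median of -0.40 (14.7% of all genes lower). In fixed non-draining nodes 10 were lower and 5 higher, at a median of -0.20 (3.09% of all genes lower). In live non-draining nodes 17 immediate early genes were higher and none lower, at a median of 0.46. There 1 of 10 chaperone genes and 1.24% of all genes were higher. In fixed draining nodes 6 immediate early genes were higher and 2 lower, at a median of 0.044, against 3.26% of all genes called. All 10 chaperone genes were lower there, at -0.97. Fos changed by -1.51 (SE 0.071, adjusted p = 4.07e-18) between the live nodes, Egr1 by -1.40 (SE 0.066, adjusted p = 4.14e-18), Zfp36 by -1.57 (SE 0.072, adjusted p = 1.54e-17) and Dusp1 by -1.48 (SE 0.073, adjusted p = 1.93e-16). Fos in fixed draining nodes differed from naive by 0.0017 (SE 0.064, adjusted p = 0.997). In fibroblastic-like cells 16 of 26 immediate early genes were lower and 1 higher in the live draining node, against 12.6% of all genes lower. Their median between the fixed nodes was -0.080.

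**Figure D5:**
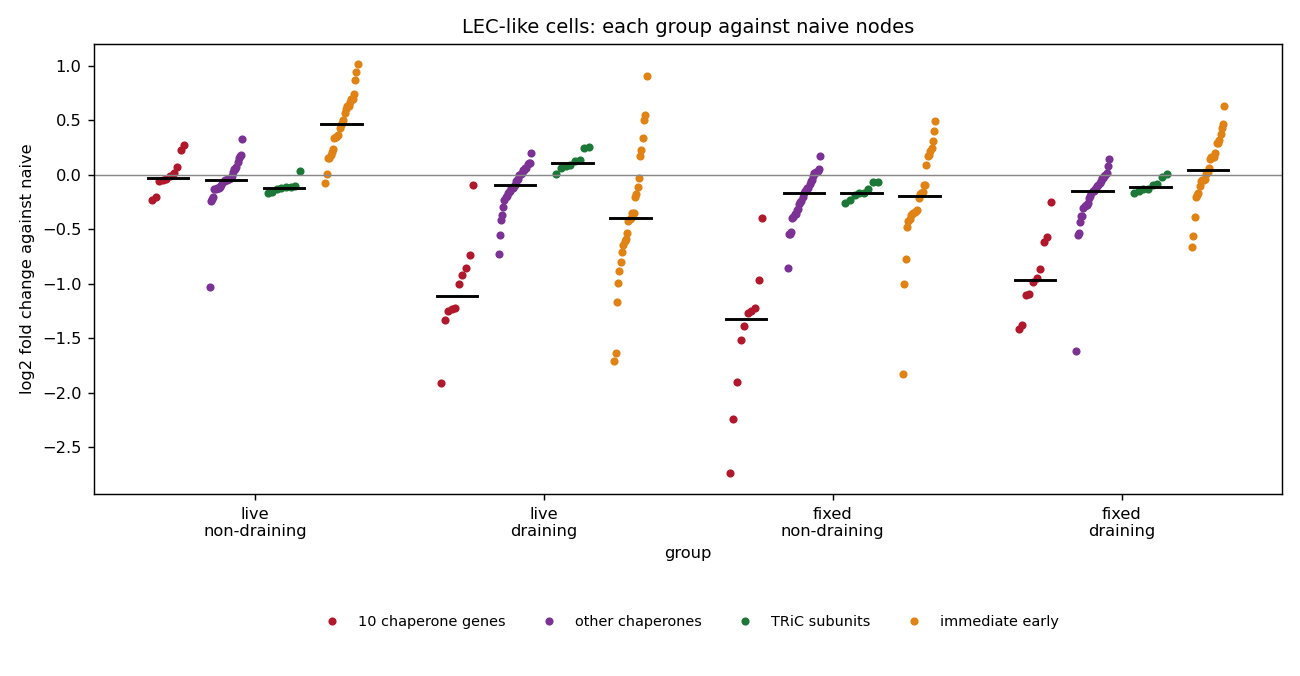
Log2 fold change against naive nodes (y axis) in LEC-like cells for 4 groups (x axis), 1 point per gene of the 10 chaperone genes, other chaperones, TRiC subunits and immediate early genes, with a bar at each list's median. The 10 chaperone genes lie around 0 only in live non-draining nodes, at a median of -0.026, where immediate early genes have a median of 0.46. The low point of the other chaperones at -1.62 is Cryab, at an adjusted p of 0.359.

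Likeness to Hspa1a beyond the groups was taken over libraries. After group means were removed, the log2 CPM of Hspa1a over the 16 LEC-like libraries correlated with Dnajb1 at Pearson r = 0.47, with Hspa1b at 0.40, with Hspa8 at 0.047 and with Hsph1 at -0.40. The genes most like it among the 5704 whose log2 CPM averaged 5 or more were Macrod2 (0.85), Plscr1 (0.84), Eif4b (0.81), Coasy (0.81) and E130308A19Rik (0.80). These points share libraries and depth, and such maxima over many genes are a description only.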

How the data were processed

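For 16 libraries (10x Genomics 3′ v3) the authors deposited raw UMI counts, aligned to mm10 with Cell Ranger 3.0.1 and not normalized. Barcodes were kept at 200 to 6000 genes and up to 30% mitochondrial UMIs, the limits of the study's methods. A cell took the class whose score, the mean over its markers scaled to their 90th percentile, was at least 1.5 times that of the next class, with at least 3 markers detected (2 for subsets). This rule was settled after the data had been seen. No doublet caller was run. Cells whose best score was under 1.5 times the next found no class, but cells with some markers of another class could still pass. UMIs were summed per library and class with at least 10 cells and tested with edgeR 4.0.16 in R 4.3.3 (TMM, filterByExpr, robust quasi-likelihood fit over all groups, Benjamini-Hochberg adjustment over all genes). The SE is the log2 fold change over the root of F. DESeq2 1.42.0 was an alternative, with other scalings, filters, gates, a 50-cell limit and left-out libraries. Shares of all genes called are from the main edgeR fit. Unless one is stated, counts of members under other settings have no such share beside them. Shares were tested with scipy 1.17.1 in Python 3.11.15, and figures drawn with matplotlib 3.10.9. Named are all 10 members, up to 4 genes of each list with the smallest live p in LEC-like cells, and 5 genes most like Hspa1a, and 1 gene that this rule names is not reported here. The members and lists were chosen with earlier results of these data known.

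Counts were simulated with 200 changed genes and all others equal between groups. In LEC-like cells edgeR recovered 83% of 2-fold and 95% of 4-fold changes between the live nodes (13827 genes) and 81% and 95% between the fixed nodes (13832 genes). In fibroblastic-like cells it recovered 93% and 96% between the live (14875 genes) and 77% and 88% between the fixed nodes (14907 genes). Of the genes called, 7.77%, 5.38%, 5.97% and 2.37% were unchanged ones, in the same order. Far more genes were called between the real live nodes, so these rates may not hold there. Depth per library ran from 7486725 to 48945961 UMIs, and shares carry counting error only beside the spread between libraries. Gene positions are from gencode on GRCm38, matched by identifier for all 10 members.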

Additional observations from a re-analysis of the deposited data

Results flagged for a closer look

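The live and the fixed draining effect differed by the test of their difference in LEC-like cells for 9 genes. Each effect sets a draining against a non-draining node, so the test does not compare the draining nodes with each other. Live and fixed draining libraries overlapped for 7 of the 10 genes in LEC-like and 5 in fibroblastic-like cells. The difference, live minus fixed on the log2 scale, was -2.64 for Hspa1a, -2.27 for Hspa1b, -2.53 for Hspb1, -1.93 for Hsph1, -1.86 for Dnajb1, -1.37 for Dnaja4, -1.02 for Bag3, -1.30 for Hsp90aa1 and -1.10 for Hspd1. In fibroblastic-like cells it was -1.26 for Hspa1a, -1.57 for Hspa1b, -1.33 for Hsph1, -1.54 for Dnajb1, -0.41 for Bag3 and -0.65 for Hsp90aa1. In other classes the difference was called for 10 genes in cLEC-like, 9 in fLEC-like, 8 in MedLEC-like, 5 in monocyte- and macrophage-like, 4 in MRC-like and 3 in TRC-like cells. It was called for 2 genes each in BEC-like, DC-like and mast-like cells and for 1 each in pericyte-like and plasma-like cells. The share of all genes called in these classes ran from 0.105% in BEC-like to 14.0% in cLEC-like cells and was 7.02% in DC-like cells.

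Naive replicate D held 583 CPM of Hspa8 in fibroblastic-like cells, while the other naive libraries held 607 to 611, a gap of 0.855 of the group's range, past Dixon's 95% critical value for 4 libraries. Of 20 naive groups tested this way, chance passes about 1 in 20.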

How the results depend on the processing

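Other scalings, DESeq2, at most 10% mitochondrial UMIs and the 12 inoculated libraries alone left each count of LEC-like and fibroblastic-like members within 1.5 times. With at most 50 cells per library, calls fell to 1 (live), 0 (fixed) and 1 (difference) of 10 in LEC-like cells, with 268 of 8317 genes called overall in the live contrast. Against naive nodes they fell to 3 (live draining), 0 (live non-draining), 1 (fixed draining) and 5 (fixed non-draining). In fibroblastic-like cells they fell to 0 (live) and 0 (difference), and Hspb1 turned to -0.027 in the live contrast. Over the 15 other classes pairs fell to 31 (live), 2 (fixed) and 24 (difference). At this limit a count over all genes is given for the live contrast of LEC-like cells only. The other falls are therefore not set against that of all genes. Members called between live non-draining and naive LEC-like cells numbered 3 without a filter, 0 with the library code ending as a term and 0 with the stricter gate. Fixed pairs numbered 22 with DESeq2, 28 without a filter and 13 with only the 12 libraries.

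With each library left out in turn, LEC-like calls were 9 to 9 (live), 6 to 8 (fixed), 9 to 9 (difference), 9 to 9 (live draining against naive), 0 to 2 (live non-draining), 9 to 10 (fixed draining) and 10 to 10 (fixed non-draining). Fibroblastic-like calls were 6 to 8 (live), 0 to 0 (fixed) and 5 to 6 (difference), and pairs 41 to 53 (live), 4 to 12 (fixed) and 38 to 47 (difference).

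The replicate block gave 9, 7 and 9 LEC-like calls (live, fixed, difference), 7 and 4 fibroblastic-like calls (live, difference) and 18 fixed pairs. It lost Hspb1 in the fixed contrast of LEC-like cells (0.82) and Hspa1a in the live contrast of fibroblastic-like cells (-1.15). Same-lettered libraries correlated at -0.098 to 0.10 in LEC-like and -0.11 to 0.13 in fibroblastic-like cells. In each class 3 of 6 pairs correlated best with their own letter, all of them fixed pairs, while no live pair did. The main fit did not take the letters as pairs, and whether they mark animals is not known.

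Not thinned, the draining minus non-draining difference in the share of cells changed sign for Bag3 (2.71 points), Hsp90aa1 (2.09) and Hspd1 (2.58) in LEC-like and Bag3 (1.81) in fibroblastic-like cells between the live nodes, and for Hspa1a (5.09) and Dnajb1 (5.38) in fibroblastic-like cells between the fixed ones. Fibroblastic-like shares that did not overlap between the fixed nodes then numbered 5, against 2. Thinned to 1000 UMIs, it did so for Hspa8 in LEC-like (-2.08) and Dnajb1 in fibroblastic-like cells (1.22) between the fixed nodes. The cause was not tested for any of these.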

Other observations

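Hspe1 and Hspd1, which form the mitochondrial chaperonin together, differed from naive nodes in LEC-like cells by -0.86 (SE 0.065, adjusted p = 3.79e-12) and -0.97 (SE 0.065, adjusted p = 1.73e-13) in the fixed non-draining node, while Lonp1, a mitochondrial protease, differed by 0.32 (SE 0.088, adjusted p = 0.0246).

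Dusp1, a phosphatase of the immediate early list, was higher than in naive nodes in LEC-like cells of live non-draining nodes, at 0.95 (SE 0.067, adjusted p = 7.66e-11), of fixed draining nodes, at 0.63 (SE 0.065, adjusted p = 6.03e-08), and of fixed non-draining nodes, at 0.40 (SE 0.068, adjusted p = 0.000261). The list as a whole had 10 genes lower and 5 higher in this last comparison, at a median of -0.20, against 5.69% of all genes called.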
